A study of Homo sapiens with 1 sample.

Results

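PAX3-positive progenitors were the cells of 1 single-cell library in which at least 1 transcript of PAX3 had been counted. They numbered 379 of 12239 kept cells, and the library held 14726 barcodes in all. The library, hHAR123, was made from H9 cells of genotype WT, in which HAR123 has its human sequence. H9 is a widely used line of human embryonic stem cells. HAR123 is a human accelerated region, a sequence that is conserved in other mammals and diverged in humans, and it lies in the gene SMG6. The cells had been driven toward neural progenitor cells (NPCs) with dorsomorphin and SB431542, which block BMP and activin/TGF-beta receptors. This took 2 days as a layer and 5 days as embryoid bodies under rotation, followed by 7 days after replating without these inhibitors. The methods of the study add that 2 clones were combined and that no rosettes had yet been selected, so cells of different clones cannot be told apart.

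A cell was kept when 2000 to 10000 genes were detected and mitochondrial genes took from 0.01 to below 0.1 of its unique molecular identifiers (UMIs, 1 per captured transcript). It also had to have fewer than 5 UMIs per 10000 for the sum of ANXA1, TFPI2 and CTGF, genes of a contractile state. Only PAX3 itself then chose the members, so PAX3 values are given as a description. Each member was set beside the 10 kept cells with 0 PAX3 UMIs that were nearest to it in total UMIs, called matched cells here. A cell with 0 PAX3 UMIs is not shown to lack PAX3, because most transcripts of a low gene are not captured. A cell with 1 PAX3 UMI is likewise not shown to express it, because free RNA can give single UMIs. There was 1 library and no replicate, so no test was run, and all intervals are exact 95% intervals that cover counting error only.

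PAX3 is a paired-box transcription factor. In the embryo it marks the dorsal part of the closing neural tube, together with its close relative PAX7, and it acts in the specification of neural crest, in melanocytes and in muscle precursors of the somites. BMP and WNT signals from the dorsal midline and surface ectoderm favor its expression. In a culture directed to forebrain NPCs it is therefore a gene of dorsal identity, and the question here was which other genes went with it.

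Kept cells held 464 PAX3 UMIs, a level of 1.96 counts per 1000000 UMIs (CPM; 1.78 to 2.14). The share of kept cells with a PAX3 UMI was 3.10% (2.80 to 3.42%). Of the members, 319 had 1 PAX3 UMI, 42 had 2, 12 had 3, 5 had 4, and 1 cell had 5. The variance of PAX3 counts was 1.47 times their mean. Among 1189 other genes of like total the median of this quotient was 1.07, and 89.7% of them had a lower one. Thus PAX3 was a low gene whose UMIs were bunched in cells more than those of most genes at its level.

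PAX3 UMIs were sparser in contractile cells that the rule left out. In these 1497 barcodes the level was 0.145 CPM (0.0724 to 0.260) and 0.668% of barcodes had a PAX3 UMI, although their median depth was 48483 UMIs against 16983 UMIs in kept cells. After thinning of each cell to 5000 UMIs, 0.883% of 12225 kept cells and 0.0668% of 1496 contractile cells had a PAX3 UMI. The share was thus lower in these deeper cells than in kept cells, before and after thinning. In the 520 barcodes with under 2000 genes the level was 3.95 CPM (1.08 to 10.1) on 4 UMIs, an interval that includes the level of kept cells. Of the 189 barcodes left out for a mitochondrial share under 0.01, 0 had a PAX3 UMI, which allows a share of up to 1.59% when 3 counts are taken as the limit.

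Within kept cells the PAX3 level was not even. By total UMIs it was 0.889 CPM (0.289 to 2.08) in cells with 5000 to 10000 UMIs and 1.28 CPM (0.986 to 1.64) from 10000 to 15000 UMIs. It reached 2.56 CPM (2.17 to 3.00) from 15000 to 20000 UMIs and 2.28 CPM (1.94 to 2.66) from 20000 to 30000 UMIs, and was 1.57 CPM (1.25 to 1.96) above that. The middle range was thus the highest. Histone transcripts, which accumulate in cells that copy their DNA, moved with it more clearly. In the quintile of kept cells with the most histone UMIs the PAX3 level was 3.62 CPM (3.13 to 4.16), against 1.36 to 1.67 CPM in the other quintiles. Among cells with 15000 to 30000 UMIs the highest histone quintile had 4.07 CPM (3.47 to 4.75) and the others 1.58 to 1.76 CPM, so the same order held at similar depth. By the S phase genes the PAX3 level was 1.18, 1.60, 1.76, 2.42 and 2.58 CPM from the lowest to the highest quintile. By the G2/M genes, PAX3 was highest in the next to highest quintile, at 3.38 CPM (2.91 to 3.91), and stood at 1.62 CPM (1.32 to 1.97) in the top quintile.

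**Figure D1:**
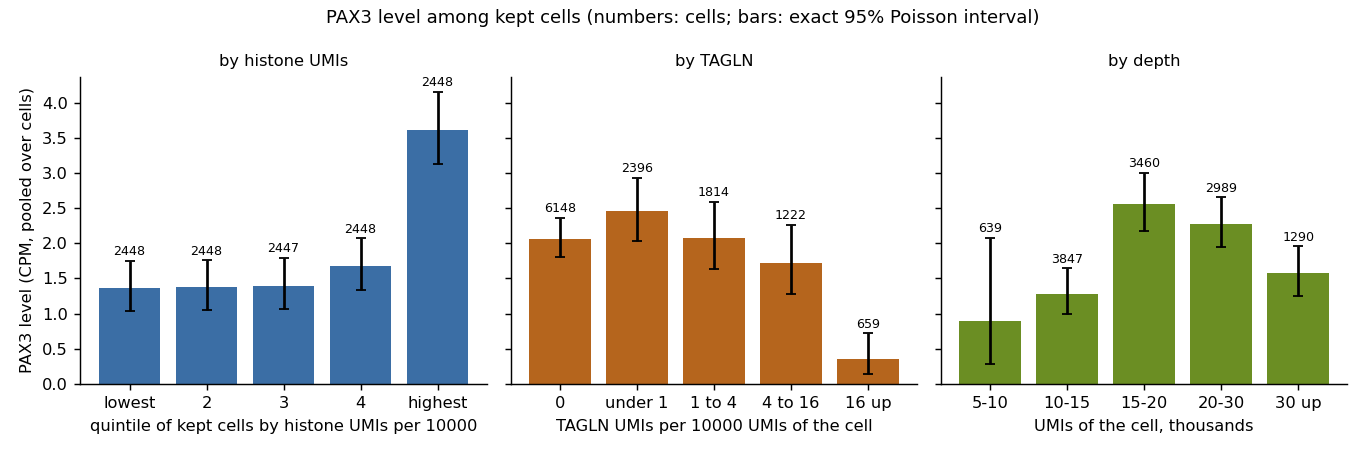
PAX3 level in CPM (y axis, pooled over cells) in kept cells divided by histone UMIs, by TAGLN level and by total UMIs (x axes). Bars carry exact 95% Poisson intervals and numbers of cells, and 14 cells under 5000 UMIs are not drawn in the panel by total UMIs. The highest histone quintile stands above the others at 3.62 CPM, and cells with 16 or more TAGLN UMIs per 10000 stand lowest at 0.350 CPM.

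The members had the genes of forebrain neural progenitors. SOX2, a transcription factor of neural progenitors, had a UMI in 375 of 379 members, with a median of 8 UMIs per cell. VIM, an intermediate filament, was found in every member with a median of 14 UMIs. SIX3, of the anterior forebrain, was found in 370 members. A SOX2 UMI was found in 98.9% of members (97.3 to 99.7%) and in 99.1% of matched cells (98.8 to 99.4%). All 14 neural progenitor genes on the list reached the minimum of 100 UMIs in members and matched cells together, and 0 were past 1.5-fold in either direction. Their median ratio of members over matched cells was 0.968. The lowest were SOX3 at 0.815 and VIM at 0.818, and the highest were SLC1A3 at 1.15 and FABP7 at 1.09. The label of progenitors was therefore met by the markers.

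Matching gave 3790 cells with a median of 19959 UMIs, against 19976 UMIs in members. The median mitochondrial share was 5.18% in members and 5.03% in matched cells, and the median number of genes was 5987 and 5939. In all, 15499 genes other than PAX3 reached 100 UMIs, and the median ratio was 1.00. A ratio of at least 1.5 was found for 234 of them, which is 1.51%, and a ratio of at most 0.667 for 482, which is 3.11%, or 4.62% either way. These shares are the background for the gene groups that follow.

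Other genes of the dorsal neural tube did not stand apart in PAX3-positive cells. Of 24 listed genes 15 reached the minimum, 0 were past 1.5-fold higher and 1 was past it lower. Their median ratio was 1.01. PAX7, the closest relative of PAX3, was at 67.3 CPM in members and 63.1 CPM in matched cells, a ratio of 1.07 (0.976 to 1.16). Members with a PAX7 UMI made up 52.5% (47.3 to 57.6%), against 50.1% (48.5 to 51.7%) of matched cells. Zinc finger genes of the ZIC family, active in the dorsal neural tube, were at 1.02 (ZIC1), 1.01 (ZIC4), 1.08 (ZIC5) and 1.16 (ZIC2). GLI3, which opposes ventral signaling, was at 0.989 (0.955 to 1.02). The 1 gene past the fold was BMP6, a dorsal ligand, with 7 UMIs in members and a ratio of 0.608 (0.239 to 1.29).

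Several defining genes of the roof plate and of the most dorsal progenitors were at or near 0 in both sets. WNT1, a ligand of the dorsal midline, had 0 UMIs in members and 1 in matched cells. ATOH1, of the rhombic lip, likewise had 0 and 1, and OLIG3, of dorsal progenitors, had 0 in both. LMX1A, a roof plate regulator, had 4 UMIs in members and 53 in matched cells, and GDF7, a roof plate ligand, had 1 and 27. For these genes a difference was not detectable at this depth. LMX1B, of the roof plate as well, had 22 and 166 UMIs, a ratio of 1.32 (0.807 to 2.07). BMP5, a dorsal ligand below the minimum, was named after its values were seen and had 13 and 53 UMIs, a ratio of 2.45 (1.22 to 4.55).

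The other PAX genes were also close to matched cells. Of 8 genes, 5 reached the minimum and 0 were past 1.5-fold. PAX6, of forebrain and eye progenitors, was at 57.9 CPM in members and 55.3 CPM in matched cells, a ratio of 1.05 (0.953 to 1.15). PAX8 was at 1.18 (0.972 to 1.41), PAX5 at 1.36 (0.717 to 2.38) and PAX2 at 0.901 (0.454 to 1.63), the last 3 genes being known from the midbrain-hindbrain boundary.

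Neural crest genes were also near matched cells, with 1 cell as an exception. Of 16 genes, 6 reached the minimum, 0 were past 1.5-fold, and their median ratio was 0.973. The lowest was DLX5 at 0.673 (0.574 to 0.785). SOX9 was at 1.05 (0.966 to 1.14) and SNAI2 at 0.854 (0.532 to 1.31). FOXD3, SOX10, TFAP2A and TFAP2B, the defining genes, did not reach the minimum. TFAP2B had 14 UMIs in members, all in 1 cell, and 0 in matched cells. That member, which was singled out after its values were seen, had 22093 UMIs and 5868 genes. It carried 4 PAX3 UMIs, 3 of SOX10, 2 of FOXD3, 2 of TFAP2A and 12 of NGFR, a receptor known from crest cells. Its TFAP2B UMIs were 87.5% of the 16 in all kept cells. It had 0 UMIs of SOX2, PAX6 and SIX3. Over all members NGFR had 22 UMIs against 66 in matched cells, a ratio of 3.33 (1.96 to 5.46), and without this cell the ratio was 1.52. SOX10 went from 1.54 to 1.08 when it was left out.

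Genes of other PAX3-expressing lineages were sparse for muscle and measurable for pigment cells and placodes. MYF5 and MYOD1, the muscle determination genes, had 0 UMIs in members and 0 and 1 in matched cells, and LBX1, of migrating muscle precursors, had 0 in both. MEOX1, a somite gene, had 6 UMIs in members and 55 in matched cells, a ratio of 1.09 (0.383 to 2.53). Of 10 somite and muscle genes, TCF15 at 1.26 and MYF6 at 0.989 reached the minimum. Among melanocyte genes, of which 5 of 7 reached it, DCT, a pigment enzyme, was at 0.200 (0.0239 to 0.741) on 2 UMIs and PMEL was at 1.00 (0.896 to 1.12). Of 8 placode genes 5 reached the minimum. DLX3 was past 1.5-fold higher at 1.55 (0.940 to 2.43) and EPCAM was at 0.745 (0.496 to 1.08).

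Genes of regional identity in the brain showed single genes past the fold rather than whole lists. SIX3 was at 0.969 (0.931 to 1.01) and LHX2, of the cortical primordium, was at 1.08 (1.03 to 1.15). EMX2, of the dorsal telencephalon, was at 68.8 CPM in members and 56.8 CPM in matched cells, a ratio of 1.21 (1.11 to 1.32). Of 13 telencephalic genes that reached the minimum, 2 were past 1.5-fold lower, among them DMRTA2 at 0.655 (0.394 to 1.03), a call that held in 3 of 10 alternatives, and 0 were past it higher. OTX1, a forebrain and midbrain homeobox gene, was at 9.69 CPM against 6.33 CPM, a ratio of 1.53 (1.20 to 1.93), and was the 1 gene of 7 past the fold on the diencephalon list. It was past the fold in 6 of 10 alternatives, the lowest being 1.32. Of 8 midbrain and hindbrain genes, IRX1 was at 2.04 (1.32 to 3.06) on 29 UMIs and FGF8, a ligand of anterior and isthmic signaling centers, was at 0.607 (0.445 to 0.810). FGF8 was past the fold in 8 of 10 alternatives. EN1 and EN2, which define the midbrain-hindbrain boundary region, had 0 UMIs in members and 3 each in matched cells. Of the ventral genes NKX2-1, of the hypothalamus and ventral telencephalon, was at 0.518 (0.204 to 1.10) on 7 UMIs, PTCH1 was at 0.908 and SHH had 0 UMIs in members.

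RAX and SIX6, both transcription factors of the eye field, were on opposite sides. RAX was at 8.18 CPM in members and 4.66 CPM in matched cells, a ratio of 1.76 (1.34 to 2.27). SIX6 was at 1.40 CPM and 4.55 CPM, a ratio of 0.308 (0.158 to 0.544). A RAX UMI was found in 14.0% of members (10.7 to 17.9%) and 8.84% of matched cells (7.95 to 9.79%). A SIX6 UMI was found in 2.64% of members (1.27 to 4.80%) and 6.20% of matched cells (5.45 to 7.02%). The other eye field genes that reached the minimum were VAX2 at 1.41 (1.00 to 1.94) and VAX1 at 0.942 (0.851 to 1.04).

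**Figure D2:**
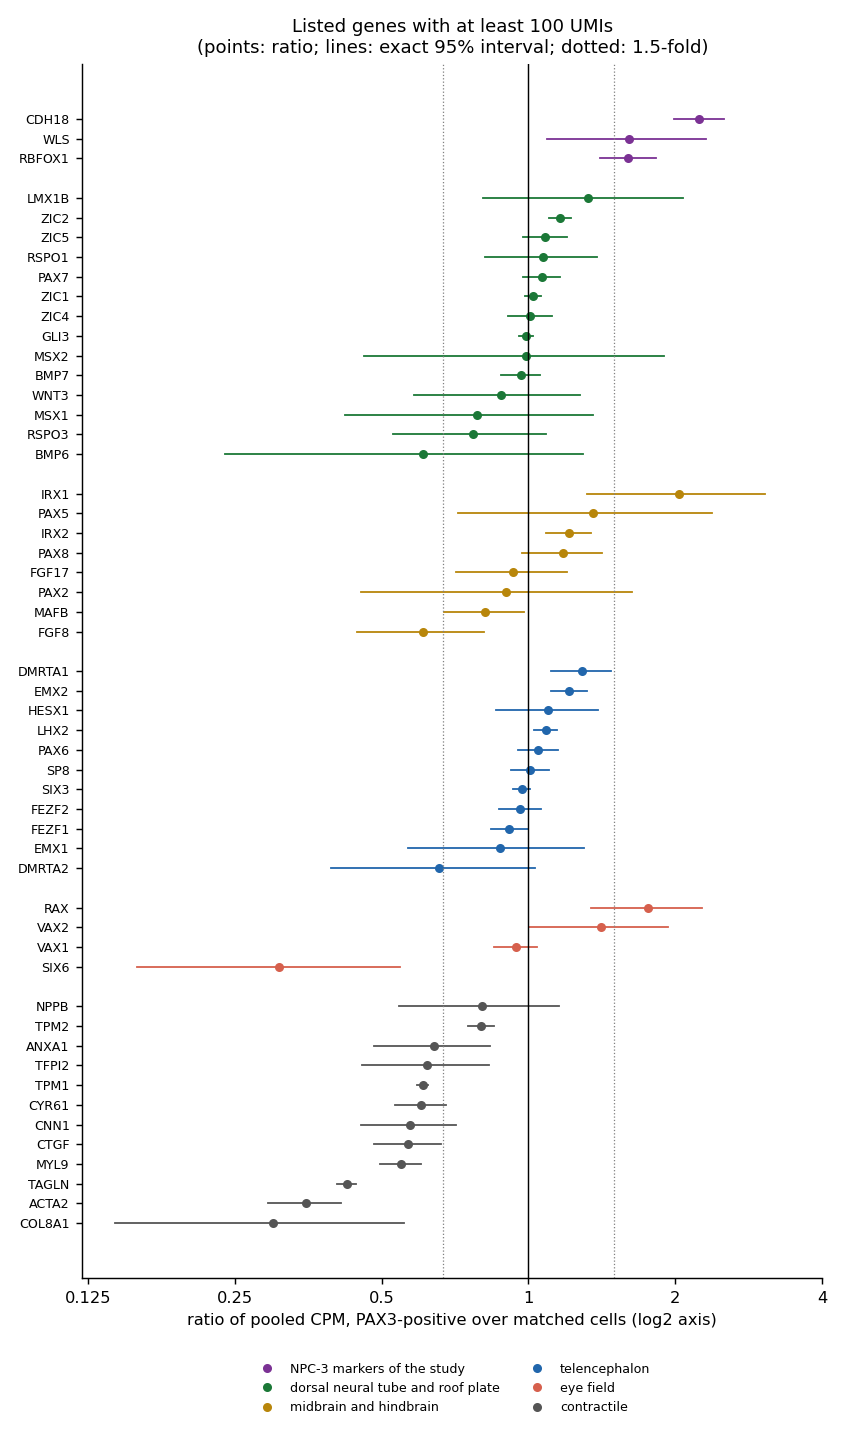
Ratio of the pooled level in 379 PAX3-positive cells over 3790 matched cells (x axis, log2 scale) for genes of 6 lists with at least 100 UMIs (y axis), colored by list; points are ratios, lines are exact 95% intervals and dotted lines mark 1.5-fold. The dorsal genes lie around 1, RAX at 1.76 and SIX6 at 0.308 lie on opposite sides, and all 12 contractile genes lie below 1.

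Signaling genes were mostly near 1. On the WNT list 18 of 26 genes reached the minimum, with a median ratio of 0.983. LGR5, a receptor for R-spondins, was the 1 gene past 1.5-fold, at 7.24 CPM against 14.5 CPM, a ratio of 0.499 (0.380 to 0.645). WNT7B, a WNT ligand of the forebrain, was the highest at 59.9 CPM against 40.6 CPM, a ratio of 1.47 (1.34 to 1.62), and AXIN2, a target of WNT signaling, was at 1.30 (0.953 to 1.74). Of 12 BMP and TGF-beta genes 2 were past the fold lower, namely BMP4, a dorsal BMP ligand, at 0.193 (0.0521 to 0.502) on 4 UMIs and GREM1, a BMP antagonist, at 0.454 (0.179 to 0.958). The highest on that list were ID3, a BMP target, at 1.16 (1.10 to 1.22) and SMAD9 at 1.17 (0.896 to 1.52). The list's median was 0.824. In cells with 2 or more PAX3 UMIs it was 1.15, over the genes that reached the minimum there, which need not be the same genes. BMP4 had 0 UMIs in those 60 cells. All 10 FGF response genes reached the minimum with a median of 1.08, from FGFR3 at 0.748 to SPRY4 at 1.12, and 0 were past the fold. The 13 Notch and proneural genes had a median of 1.00, with HES5 lowest at 0.822 and NOTCH1 at 1.27 (1.17 to 1.38). Of these, 0 were past the fold.

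Genes of neurons were mixed. Over 10 genes the median ratio was 0.772, with 7 below 1 and 3 above it, 2 past 1.5-fold lower and 1 past it higher. ELAVL3, an RNA-binding protein of young neurons, was at 3.39 CPM against 7.06 CPM, a ratio of 0.479 (0.318 to 0.696), and GAP43, of growing axons, at 0.658 (0.541 to 0.793), past the fold in 5 of 10 alternatives. DCX, a microtubule protein of migrating neurons, was at 0.772 (0.699 to 0.852) and STMN2 at 0.772 (0.645 to 0.917), with 35 of its 139 UMIs in 1 cell, and at 0.579 (0.470 to 0.705) without that cell. NHLH1 was the higher one at 1.66 (0.915 to 2.84), with 5 of its 16 UMIs in 1 cell, and at 1.14 (0.553 to 2.14) without it. The stress-related lists had single low genes. CDKN1A, a p53 target that halts the cell cycle, was at 0.510 (0.346 to 0.728) as the 1 of 10 p53 targets past the fold. FOS at 0.498 (0.322 to 0.739) and JUNB at 0.664 (0.405 to 1.03) were the 2 of 7 immediate early genes past it. Of 8 pluripotency genes 3 reached the minimum, from DPPA4 at 0.918 to DNMT3B at 1.11.

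The contractile genes had the lowest median ratio of the lists with at least 6 measured genes. All 12 reached the minimum, 10 were past 1.5-fold lower against a background of 3.11% of genes, and the median ratio was 0.587. ANXA1, TFPI2 and CTGF of this list had been used to keep cells, in members and matched cells alike. Of the 9 genes without these, 7 were past the fold lower, with a median of 0.572. TAGLN, an actin-binding protein of smooth muscle, was at 238 CPM in members and 562 CPM in matched cells, a ratio of 0.424 (0.406 to 0.444). The share of cells with a TAGLN UMI differed less, at 52.8% of members and 55.5% of matched cells, and 29.8% and 35.2% after thinning. ACTA2, smooth muscle actin, was at 16.4 and 46.8 CPM, a ratio of 0.350 (0.293 to 0.414). COL8A1 was at 0.299 (0.142 to 0.557), MYL9, a myosin light chain, at 0.547 (0.496 to 0.602) and TPM1, a tropomyosin, at 0.607 (0.591 to 0.623). TPM1 was past the fold in 8 of 10 alternatives. NPPB at 0.805 (0.543 to 1.16) and TPM2 at 0.798 (0.750 to 0.849) were not past the fold. The PAX3 level was 2.07 CPM (1.80 to 2.37) in kept cells with 0 TAGLN UMIs and 2.45 CPM (2.03 to 2.94) in those with fewer than 1 per 10000. It was 2.07 CPM (1.63 to 2.59) from 1 to 4 and 1.71 CPM (1.27 to 2.26) from 4 to 16 TAGLN UMIs per 10000. It was 0.350 CPM (0.141 to 0.720) in the 659 cells at or above 16, of which 7 had a PAX3 UMI. When matched cells were also chosen for their TAGLN level the list's median was 0.838, and TAGLN itself was at 0.938, a value that this matching itself brings near 1. Over the 10 alternatives TAGLN ranged from 0.204 to 0.938 and ACTA2 from 0.200 to 0.581.

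Histone genes were shifted upward as a list. Of 71 genes of the histone clusters, a list chosen after its members' values were seen, 50 reached the minimum, 11 were past 1.5-fold higher and 0 lower, and the median was 1.36. HIST1H2AB was at 7.59 CPM against 4.09 CPM, a ratio of 1.85 (1.40 to 2.42), and HIST1H3F at 26.2 against 16.6 CPM, a ratio of 1.57 (1.36 to 1.81). The highest were HIST1H2BM at 1.94 (1.31 to 2.80) and HIST1H4B at 1.87 (1.34 to 2.55), and the lowest HIST3H2BB at 0.679 (0.266 to 1.45). When matched cells were also chosen from the same quintile of histone UMIs, the median was 0.980, a value that this matching itself brings near 1. The S phase genes, of which 42 of 43 reached the minimum, had a median of 1.06, from 0.933 for WDR76 to 1.29 (1.20 to 1.38) for RRM2, and 36 were above 1. The 54 G2/M genes had a median of 0.976, from NEK2 at 0.799 to CDC25C at 1.17. The list of S phase genes and that of G2/M genes each had 0 genes past the fold.

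The genes furthest from 1 were picked in one random set of the cells and read in the other, so that the value given is not the one that chose them. The first set held 190 members and the second 189, each with its matched cells. Of the 12 genes picked as higher, 7 were above 1 in the second set and 6 past 1.5-fold. They were CDH18 at 2.72 (2.32 to 3.18), FOXC1 at 2.05 (1.40 to 2.94), AC022523.1 at 1.83 (1.27 to 2.58), HIST1H2AI at 1.59 (1.04 to 2.36), GNGT1 at 1.56 (1.16 to 2.06) and LINC01091 at 1.51 (1.16 to 1.94). TMEM132C was at 1.44 (0.917 to 2.18). The other picked genes did not hold, namely LOXL1-AS1 at 0.885, TMSB15B-AS1 at 0.838, RBM47 at 0.734, KCTD8 at 0.621 and RALYL at 0.196. In KCTD8 29 of 56 member UMIs, and in RALYL 24 of 40, came from 1 cell.

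Of the 12 genes picked as lower, 10 were below 1 in the second set and 8 past 1.5-fold. SFRP4, a secreted WNT modulator, read 0.135 (0.0162 to 0.496), EDN1, the peptide endothelin, 0.264 (0.125 to 0.490), and TLL1, a protease that processes BMP antagonists, 0.271 (0.0871 to 0.645). AC016152.1 read 0.339, COL8A1 0.363, ACTA2 0.418 (0.330 to 0.522), GCNT4 0.563 and PLCL1 0.608. LINC01776 at 0.744 and LINC01162 at 0.881 were below 1, PPP5D1 was at 1.36, and SGCZ turned to 1.81 (1.31 to 2.46), with 46 of its 54 member UMIs in 1 cell. With the sets exchanged, 10 of 12 higher and 9 of 12 lower genes kept their side, and 5 and 8 were past the fold.

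**Figure D3:**
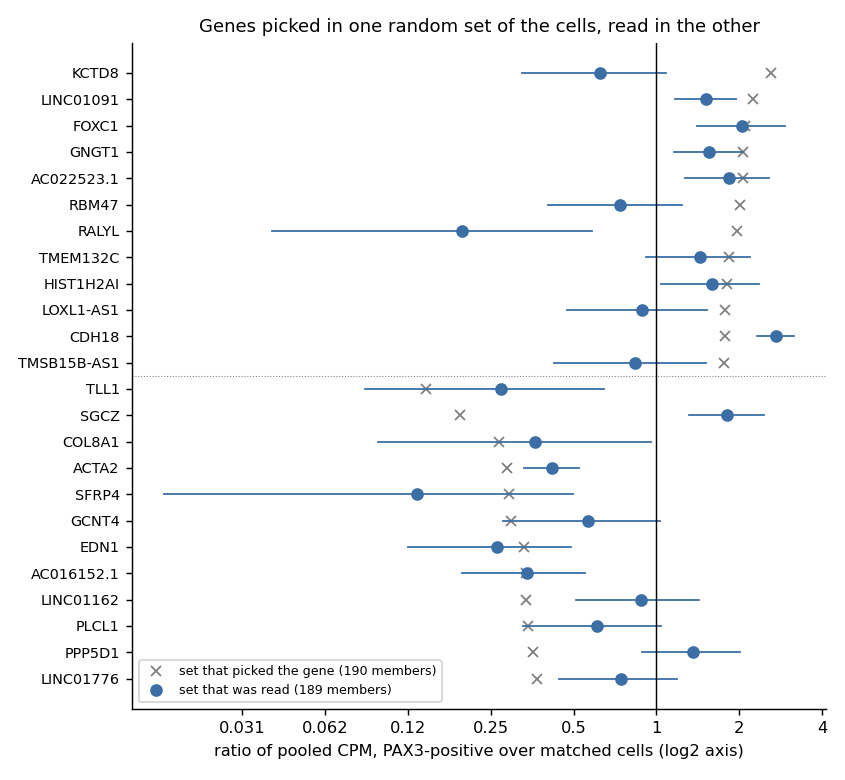
Genes (y axis) picked in the first set of the cells as the 12 highest (top) and the 12 lowest (bottom), with the ratio of pooled levels in members over matched cells on a log2 x axis; crosses are the ratios that picked them, and points with exact 95% intervals are the ratios read in the second set. CDH18 at 2.72 and FOXC1 at 2.05 stay high, and RALYL at 0.196 and SGCZ at 1.81 lie on the other side of 1.

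FOXC1, a forkhead factor of head mesenchyme, meninges and eye, was picked as higher in either set. It was at 10.0 CPM in members and 4.83 CPM in matched cells, a ratio of 2.08 (1.63 to 2.63). A FOXC1 UMI was found in 57 members, or 15.0% (11.6 to 19.0%), and in 8.34% of matched cells (7.48 to 9.26%), and at most 8 of its 86 UMIs came from 1 cell. After thinning to 5000 UMIs these shares were 2.90% and 2.32%, on 11 members. Its ratio was 1.99 with matching also on histone UMIs and 1.95 with matching also on TAGLN. LINC01091 was at 21.5 against 11.4 CPM over all members, and GNGT1, a G protein subunit, at 15.9 against 8.76 CPM.

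CDH18, WLS and RBFOX1 are markers of the NPC cluster that the study called NPC-3, as is PAX3 itself, the gene that chose the members. Over all members the 3 genes other than PAX3 were past 1.5-fold higher, each with a large part of its UMIs in few cells. The study chose them on this and its other libraries, so their direction is not independent evidence. CDH18, a cadherin of neurons, was at 40.4 CPM (346 UMIs) in members and 18.1 CPM in matched cells, a ratio of 2.24 (1.98 to 2.51). Its UMIs were concentrated in few cells, with 74 members positive and up to 54 UMIs in 1 of them. Without the 5 members highest in CDH18 the ratio was 1.55 (1.35 to 1.78), and without the 10 highest it was 1.22 (1.04 to 1.43), where their matched cells were removed with them and the matched cells highest in CDH18 were not. The share of cells with a CDH18 UMI was 19.5% in members (15.7 to 23.9%) and 10.7% in matched cells (9.69 to 11.7%). After thinning it was 9.23% and 4.27%. Cells with 5 or more CDH18 UMIs were 24 members (6.33%) and 86 matched cells (2.27%). RBFOX1, a splicing factor of neurons, was at 1.60 (1.40 to 1.83), with 49 of 258 UMIs in 1 cell. Without that cell it was at 1.31 (1.13 to 1.52), and it was past the fold in 7 of 10 alternatives. WLS, which carries WNT proteins to the cell surface, was at 1.61 (1.09 to 2.31) on 35 UMIs, at 1.34 (0.877 to 1.98) without the 1 member highest in it, and at 0.756 under the study's own cell filter. In the 319 members with 1 PAX3 UMI its level was 2.69 CPM (1.62 to 4.19), against 2.54 CPM in matched cells, and 12 of its UMIs lay in 4 cells with 3 or more PAX3 UMIs.

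Cells with more PAX3 UMIs were read as a graded description. FOXC1 was at 4.83 CPM (4.38 to 5.32) in matched cells, at 9.19 CPM (7.09 to 11.7) in cells with 1 PAX3 UMI and at 14.1 CPM (8.75 to 21.6) in the 60 cells with 2 or more. OTX1 was at 6.33, 8.06 and 17.5 CPM, RAX at 4.66, 7.49 and 11.4 CPM, IRX1 at 1.66, 2.83 and 6.06 CPM, and WNT7B at 40.6, 57.1 and 73.3 CPM. In each of these genes the order followed the PAX3 count, and only for OTX1 were the intervals of cells with 1 and with 2 or more PAX3 UMIs apart. Histone UMIs moved with it as well, at 1070, 1421 and 1593 CPM, and their part in these values was not tested. In the other direction TAGLN was at 562, 257 and 150 CPM, LGR5 at 14.5, 7.92 and 4.04 CPM, and SIX6 at 4.55, 1.55 and 0.673 CPM, the last on 1 UMI. Of these, the intervals of the last pair were apart for TAGLN. Such intervals do not cover the spread between cells, and 186 of the 2041 TAGLN UMIs of members came from 1 cell. The share of cells with a TAGLN UMI did not follow the order of the levels, at 55.5% of matched cells, 51.4% of cells with 1 PAX3 UMI and 36 of the 60 cells with 2 or more. PAX7 at 63.1, 68.1 and 63.3 CPM and SOX2 at 400.0, 396 and 396 CPM kept one level across these groups. Some other genes named above did not keep an order. EMX2 was at 56.8, 71.9 and 53.8 CPM, RBFOX1 at 18.8, 30.8 and 26.9 CPM and AC022523.1 at 4.94, 9.89 and 8.07 CPM. MYL9 was at 94.8, 50.3 and 59.2 CPM and FGF8 at 9.43, 5.51 and 6.73 CPM. For CDH18 the values were 18.1, 38.6 and 49.1 CPM, with overlapping intervals for the last pair. In the few cells with 3 or more PAX3 UMIs the order did not go on for several genes that had followed it. OTX1 was at 5.47 CPM on 3 UMIs, RAX at 7.30 CPM (1.99 to 18.7), WNT7B at 45.6 CPM (29.5 to 67.3), CDH18 at 32.8 CPM (19.5 to 51.9), TAGLN at 243 CPM (203 to 288) and histone UMIs at 1361 CPM. FOXC1 was at 16.4 CPM (7.51 to 31.2) and IRX1 at 9.12 CPM (2.96 to 21.3) there. SOX2 was lower in these few cells than in the groups above, at 312 CPM (267 to 362). SIX3 was at 333 CPM in matched cells and 330 CPM in cells with 1 PAX3 UMI. It was at 286 CPM (259 to 315) in cells with 2 or more and 248 CPM (208 to 294) in those with 3 or more.

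**Figure D4:**
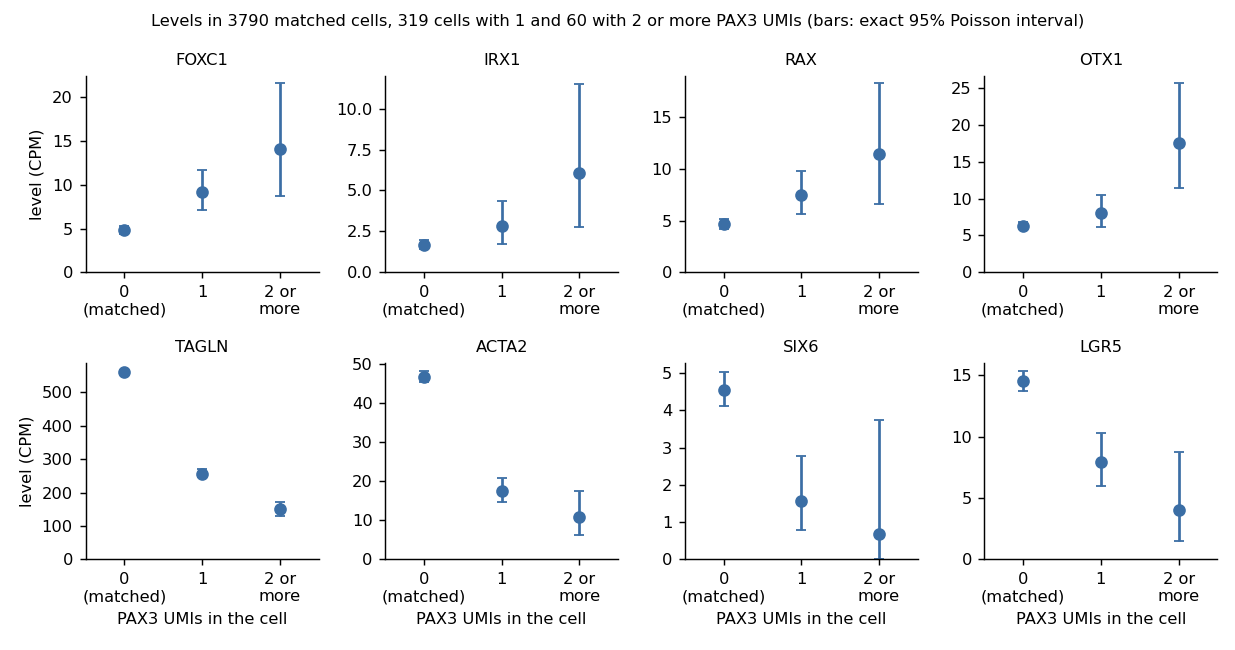
Level in CPM (y axes, from 0) of FOXC1, IRX1, RAX, OTX1, TAGLN, ACTA2, SIX6 and LGR5 in 3790 matched cells with 0 PAX3 UMIs, 319 cells with 1 and 60 cells with 2 or more (x axes); points are pooled levels and bars exact 95% Poisson intervals. The upper row goes up with the PAX3 count, FOXC1 from 4.83 to 14.1 CPM, and the lower row goes down, TAGLN from 562 to 150 CPM.

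The genes around PAX3 were close to matched cells, save 1 low gene. PAX3 lies on chromosome 2 from 222199887 to 222298998 on the minus strand (GRCh38, GENCODE 44). CCDC140, which overlaps it by 852 bases on the other strand, had 1 UMI in members and 2 in matched cells; whether counting used the strand is not stated. SGPP2 was at 1.62 (0.943 to 2.65) on 19 UMIs and past 1.5-fold in 6 of 10 alternatives. AP1S3 was at 1.20 (0.971 to 1.47), FARSB at 1.11 (1.00 to 1.24), EPHA4, a receptor of the ephrin system, at 1.07 (1.04 to 1.12) and ACSL3 at 1.03 (0.955 to 1.10). MOGAT1 had 0 UMIs in members and KCNE4 had 1. SMG6, the host gene of HAR123, was at 1.01 (0.955 to 1.08).

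A like comparison in cells with another regional gene gave other values for several genes, set side by side here without a test. It used 10 matched cells per NKX2-1-positive cell but 3 per RAX- or SIX6-positive cell, from kept cells without a UMI of the gene or genes in question. In 214 NKX2-1-positive cells CDH18 was at 0.563 (0.412 to 0.754), OTX1 at 0.222 (0.0883 to 0.462), FOXC1 at 1.03 (0.627 to 1.62) and TAGLN at 0.650 (0.616 to 0.686). The median over histone genes was 1.06. In 1367 cells positive for RAX or SIX6, CDH18 was at 0.843 (0.766 to 0.928), OTX1 at 1.20 (1.04 to 1.39), FOXC1 at 0.818 (0.680 to 0.980) and TAGLN at 1.04 (1.02 to 1.05), and the histone median was 1.03. EPHA3, an ephrin receptor that was named after its values were seen, was low in all of them, at 0.362 (0.280 to 0.461) in PAX3-positive, 0.553 (0.411 to 0.730) in NKX2-1-positive and 0.341 (0.297 to 0.390) in RAX- or SIX6-positive cells. ELAVL3 was below 1 in all of them as well, at 0.479 (0.318 to 0.696), 0.453 (0.256 to 0.746) and 0.722 (0.607 to 0.857) in the same order. The medians over neuron genes were 0.772, 0.588 and 0.782. LGR5, at 0.499 in PAX3-positive cells, was at 0.572 (0.501 to 0.652) in RAX- or SIX6-positive and 1.30 (1.00 to 1.67) in NKX2-1-positive cells. The sets shared cells. An NKX2-1 UMI was found in 6 members, or 1.58% (0.583 to 3.41%), against 2.22% of matched cells, and a RAX or SIX6 UMI in 61 members, or 16.1% (12.5 to 20.2%), against 14.3% (13.2 to 15.5%) of matched cells. HIC1, the gene next to SMG6, was found in 3 members, or 0.792% (0.164 to 2.30%), and in 0.923% of matched cells (0.644 to 1.28%).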

How the data were processed

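The library was made with the 10x Chromium 3' kit. The authors deposited raw counts, the number of UMIs per gene and barcode; per the labels these came from Cell Ranger 7.0.1 and GRCh38, and Seurat 4.4.0 is also named in the submitters' processing notes. The methods of the study state default parameters for Cell Ranger and do not name the gene annotation or strand setting of the single-cell counts. Levels are summed UMIs of a gene over all UMIs, in CPM, with Poisson intervals; shares have Clopper-Pearson and ratios exact conditional intervals (scipy 1.17.1, numpy 2.4.6, pandas 2.3.3, Python 3.11.15). Kept cells had 3167 to 92060 UMIs. No doublet caller was run; cells above 10000 genes were left out, and a limit of 30000 UMIs was tried. The ratio and its interval were tested on simulated counts that held no spread between cells. Thinning, the random sets and the list medians were not simulated.

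The members and lists were chosen with earlier results of these data known. Named genes are the 12 highest and 12 lowest of the first random set with at least 200 UMIs there; genes past 1.5-fold and defining genes of the regional, PAX and WNT lists; PAX3 and its neighbors; and the extremes of other lists. Some of the genes this rule names are not reported here.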

Additional observations from a re-analysis of the deposited data

Results flagged for a closer look

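PAX3 UMIs were also found in barcodes that were not used in the main comparison, above the limit that a count of 0 allows. There were 11 in the contractile cells left out, 6 in the 94 barcodes with over 10000 genes and 4 in the 520 barcodes with under 2000 genes. These counts were read without a test.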

How the results depend on the processing

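Each library value rests on 1 library, and many ratios on few UMIs, so single cells can set them. The share of kept cells with a PAX3 UMI was 2.79% under the study's filter alone, 0.883% after thinning and 0.490% when 2 UMIs were needed, and the PAX3 level was 1.51 CPM under the study's filter. In the main comparison 234 of 15499 genes were past 1.5-fold higher and 482 lower. These genes numbered 130 and 290 with 5 matched cells per member. With a minimum of 20 UMIs per gene they numbered 1024 and 1744, and with a minimum of 500 they numbered 22 and 93. They numbered 122 and 246 with matching also on histone UMIs, and 110 and 240 with matching also on TAGLN. The number of genes that reached the minimum differed between these settings, so the counts alone do not show how the share changed. The matching on histone UMIs and on TAGLN, with 5 cells per member, was chosen after seeing the data. So were the removal of the TFAP2B-positive cell or of the cells highest in a gene, and the contractile list without the rule's genes. The S phase median was 1.08 under a random draw, 1.13 in cells with 2 or more PAX3 UMIs, 1.09 under the study's filter and 1.02 with histone matching. The histone median was 0.980 there, a value that the matching itself brings near 1. In cells with 2 or more PAX3 UMIs the BMP median was 1.15 and the FGF median 1.15. Both were taken over the genes that reached the minimum in that smaller set of cells, which need not be those of the main comparison. Under the study's filter the medians were 1.12 (FGF), 1.10 (dorsal), 1.05 (G2/M) and 0.367 (contractile). The contractile median was 0.695 with at most 30000 UMIs and 0.838 with TAGLN matching. WLS turned to 0.756 under the study's filter. Among the genes past 1.5-fold the same way in all 10 alternatives were CDH18, FOXC1, RAX, IRX1, SIX6, LGR5 and ACTA2. So were BMP4, ELAVL3, FOS, SFRP4, TLL1, AC022523.1, AC016152.1, LINC01091 and TMEM132C. OTX1 passed in 6, RBFOX1 in 7 and TAGLN in 9 of the 10 alternatives. An alternative that changed only the minimum of UMIs per gene could not move a gene's ratio. Such counts can therefore overstate how far the ratios were tried. No paired analysis was possible because there is 1 library.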
